A study of Homo sapiens with 2 samples.

Results

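The circadian clock genes described here are DBP, TEF, NR1D1, NR1D2, PER1, PER2, PER3, CRY1, CRY2 and USP2, which encode repressors of the clock and transcripts that the clock drives. Their probe sets were taken where the platform annotation pairs a probe set with exactly 1 of these symbols. This gave 20 probe sets for 8 of the 10 genes, out of 19775 genes with a single-gene probe set on the array. The 4 probe sets listed for PER1 also carry the symbol of the microRNA gene MIR6883, and the 3 listed for NR1D1 also carry that of THRA, so no value is given for either gene. The genes were chosen with the difference between these same arrays known, so every value of that difference is a description and none is a test.

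The data compare stable derivatives of C33-A, an established line of human cervical carcinoma cells with epithelial morphology. The CA9 line (CA 9-transfected C33-A) carried the full-length human cDNA of CA9, which encodes the membrane-bound enzyme carbonic anhydrase IX, in the plasmid pcDNA3.0. The vector line (mock-transfected C33-A) carried the empty plasmid, so both had gone through stable transfection. Culture was in RPMI with 10% serum and 1% antibiotics under 5% CO2, and RNA was taken on day 4 after seeding. Whether each line is 1 clone or a pool is not given in the sources used here, and the labels give neither a clock time of harvest nor a step that synchronised the cells. Each line has 1 array, so an effect of CA9 and the spread between cultures or arrays cannot be told apart, and no p-value is given.

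The mammalian clock is a feedback loop of transcription. BMAL1 pairs with CLOCK or NPAS2 and binds E-box sequences, where it switches on the PER and CRY genes, whose proteins return to the nucleus and block it. A second loop runs through the nuclear receptors NR1D1 and NR1D2 (REV-ERB alpha and beta), which repress BMAL1 by competing with the ROR receptors. DBP and TEF are related leucine zipper proteins that bind D-box sequences and carry the rhythm to output genes, and USP2 is a deubiquitinating enzyme whose transcript cycles in many tissues. The phase of these rhythms differs between genes, and in a culture that has not been synchronised single cells keep different phases, so that a population average shows little of them.

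Upstream sequences from RefSeq (GRCh38.p14) show which of the loop's known sequence elements lie close to the starts of these genes. For each start in that table, the 250 bases before it were searched on both strands for the E-box CACGTG, the variant E-box CACGTT of the PER2 gene, the D-box TTANGTAA, the ROR element core TAGGTCA and the cAMP response element TGACGTCA. All 10 genes were found there, with 14 starts, and 9 of the 14 stretches held at least 1 match. No matches shared letters. The stretches around the matches of the measured genes follow, 30 bases each, with the matched letters in capitals.
TEF first start, E-box, chr22:41367248-41367277, plus strand: gcgcgacagctcCACGTGctgcagctggcg
TEF second start, E-box, chr22:41381737-41381766, plus strand: cacctggccccgCACGTGtctatcttatcc
NR1D2 second start, E-box, chr3:23945954-23945983, plus strand: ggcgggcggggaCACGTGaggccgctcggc
NR1D2 second start, E-box, chr3:23946004-23946033, plus strand: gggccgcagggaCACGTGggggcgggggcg
NR1D2 second start, D-box on the opposite strand, chr3:23945916-23945945, plus strand: gtgacgcggcaTTACATAAtgggcgctgag
PER2, variant E-box, chr2:238288790-238288819, minus strand: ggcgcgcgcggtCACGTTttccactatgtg
PER3 first start, D-box, chr1:7784103-7784132, plus strand: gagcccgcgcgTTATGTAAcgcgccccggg
CRY1, variant E-box on the opposite strand, chr12:107093621-107093650, minus strand: acacacttcagaAACGTGaggtgccggtgg
CRY2 second start, variant E-box on the opposite strand, chr11:45847275-45847304, plus strand: acacatggtaggAACGTGagggggcgggcc
CRY2 second start, ROR element core, chr11:45847399-45847428, plus strand: ttgcggcgtcaTAGGTCActgggcgggcta

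Among all 35116 upstream stretches of this length in the table, 6.34% held the E-box, 4.55% its variant, 1.98% the D-box, 1.61% the ROR element core and 1.65% the cAMP response element. Of the 14 stretches of the 10 clock genes, 4 held the E-box, 4 the variant, 2 the D-box, 1 the ROR element core and 0 the cAMP response element. The E-box stretches belong to TEF, NR1D2 and PER1, and the second start of NR1D2 has 2 of them, 105 and 155 bases upstream, together with a D-box 194 bases upstream. DBP and USP2, the clock genes with the highest differences on these arrays, had no match, which says only that these letters are absent from 250 bases. The DBP stretch is shown whole, since the E-boxes known to drive this gene lie elsewhere, introns included.
DBP, chr19:48637380-48637629, minus strand: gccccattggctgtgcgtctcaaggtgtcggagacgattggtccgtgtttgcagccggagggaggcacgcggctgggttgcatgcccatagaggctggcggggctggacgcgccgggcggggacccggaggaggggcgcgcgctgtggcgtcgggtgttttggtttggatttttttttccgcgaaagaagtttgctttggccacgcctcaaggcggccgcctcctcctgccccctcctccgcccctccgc
A match of letters is a description of the sequence and not evidence that a factor binds there.

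The clock genes split by direction between the arrays. DBP and USP2 were more than 2-fold higher in the CA9 line in their brightest probe set, with log2 differences of 1.13 and 1.24. All 10 probe sets of DBP, TEF and USP2 were higher in the CA9 line, although 3 of them lay below the floor on 1 or both arrays. NR1D2, PER3 and PER2 were lower in their brightest probe sets, with log2 differences as measured of -1.04, -0.90 and -0.53, and the CA9 value of NR1D2 and PER3 lay below the floor defined next. CRY1, at -0.27, CRY2, at 0.16, and TEF, at 0.20 in its brightest probe set, were closer to 0.

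A gene is represented by its brightest single-gene probe set, and intensities are linear values as deposited. The floor is the median intensity of all probe sets other than controls, 40.8. A gene is measurable if at least 1 of its arrays lies above it, and where 1 array lies below it the fold is a lower bound ("at least") computed with the floor in its place, while log2 differences are as measured. All 8 clock genes with values were measurable, but only 10 of their 20 probe sets lay above the floor on both arrays and 7 lay above it on neither. As a measure of technical disagreement, the log2 differences of probe sets of the same gene had a pooled SD of 0.31 around their mean over 6186 genes. They come from the same RNA on the same array and are not replicates.

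**Figure D1:**
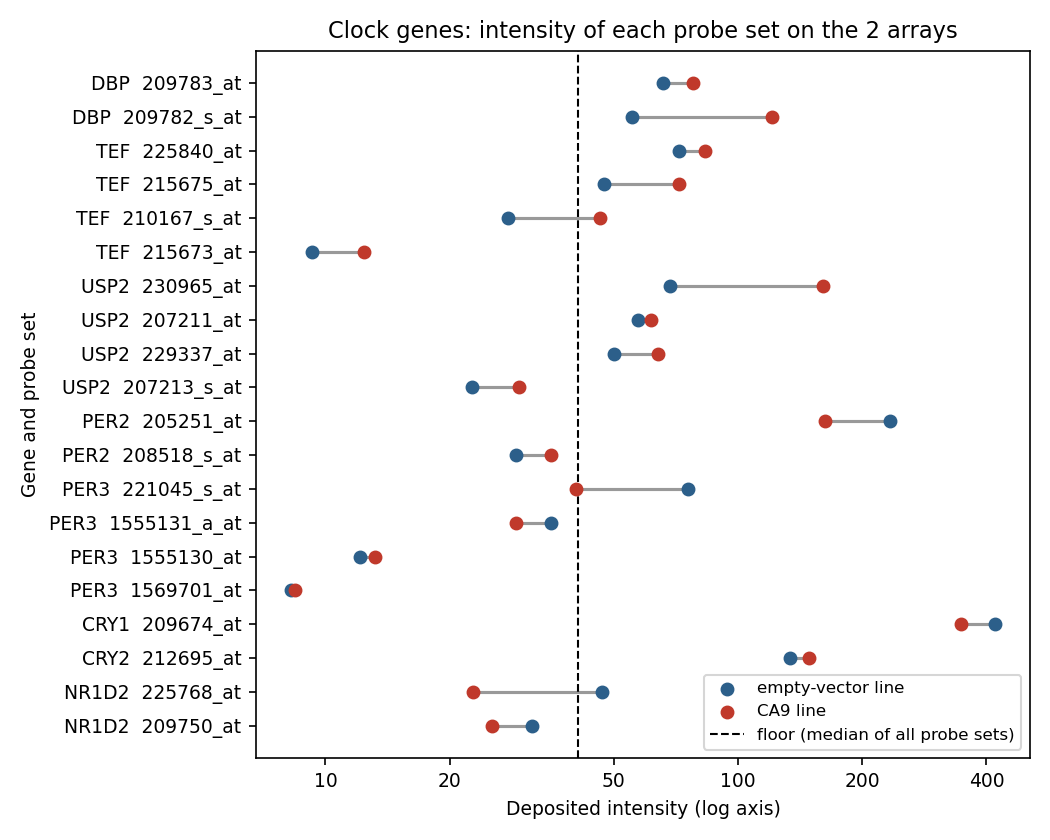
Deposited intensity (log axis) of the 20 probe sets of the clock genes on the array of the CA9 line (red) and of the vector line (blue), with the floor of 40.8 as a dashed line. The red point lies to the right in every probe set of DBP, TEF and USP2, and to the left in both probe sets of NR1D2.

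Among the output genes, DBP, the D-box activator, had 2 probe sets, both above the floor on both arrays. In 209782_s_at its intensity was 121 in CA9 cells against 55.2 in vector cells, a 2.18-fold difference. In 209783_at it was 77.9 and 65.8, a 1.18-fold difference with a log2 value of 0.24. The CA9 line was thus higher in both, but the probe sets disagreed on the size, and their mean log2 difference was 0.69. Of the 5015 genes with 2 single-gene probe sets on the array, 27.6% had both above 0. The probe set with the larger difference is of a kind (_s_at) that can detect more than 1 transcript.

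TEF, the relative of DBP in the same leucine zipper family, was higher in the CA9 line in 4 of 4 probe sets, of which 0 passed 2-fold. Its brightest probe set, 225840_at, had intensities of 83.0 and 72.0, a 1.15-fold difference. In 215675_at they were 71.8 against 47.4, a 1.52-fold difference. In 210167_s_at the CA9 line was at 46.3 and the vector line at 27.7, which lies under the floor, and the difference is at least 1.13-fold. The fourth, 215673_at, lay far below the floor on both arrays, at 12.4 and 9.30. The mean log2 difference over the 4 was 0.49 with an SD between probe sets of 0.23. Among the 1393 genes with 4 single-gene probe sets on the array, 8.9% had all 4 above 0.

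USP2, the deubiquitinating enzyme, was likewise higher in the CA9 line in 4 of 4 probe sets. Its brightest, 230965_at, had intensities of 161 and 68.3, a 2.36-fold difference and the highest among the clock genes. In 229337_at the CA9 line was at 63.9 and the vector line at 50.03, a 1.28-fold difference. In 207211_at the values were 61.5 and 57.3, a 1.07-fold difference. The last, 207213_s_at, was below the floor on both arrays, at 29.5 and 22.7. So 1 of 3 probe sets above the floor carried a difference past 2-fold, the others had log2 differences of 0.35 and 0.10, and the mean over all 4 was 0.52.

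Among the repressors, PER2 was lower in the CA9 line. Its brightest probe set, 205251_at, had intensities of 162 in CA9 cells against 234 in vector cells, a 1.44-fold difference. Its second, 208518_s_at, pointed the other way at 35.2 and 29.0, both below the floor. PER2 was thus measured by 1 probe set, and the average of the pair was -0.12.

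PER3, a PER family member that is less needed for rhythm than the others, was close to the floor. In 221045_s_at the CA9 line was at 40.4, just below the floor, and the vector line at 75.4, a difference of at least 1.85-fold. Its other 3 probe sets lay below the floor on both arrays, with intensities from 8.27 to 35.3 and log2 differences of -0.28, 0.03 and 0.12. The difference of PER3 therefore rests on 1 probe set, and its average over all 4 was -0.26.

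NR1D2, the nuclear receptor that represses BMAL1, was lower in the CA9 line in both probe sets. In 225768_at the intensity was 22.8 in CA9 cells against 46.7 in vector cells. Since the lower value lies below the floor, the difference is at least 1.14-fold, although the log2 difference as measured was -1.04. In 209750_at both arrays were below the floor, at 25.4 and 31.7. Both below 0 was the case for 28.4% of genes with 2 single-gene probe sets.

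CRY1 and CRY2, the cryptochromes that act with the PER proteins, were each measured by 1 probe set. CRY1 had intensities of 347 in CA9 cells against 419 in vector cells, a 1.21-fold lower value with a log2 difference of -0.27. CRY2 had 149 and 133, a 1.11-fold higher value with a log2 difference of 0.16. Both lie above the floor on both arrays, and both differences are smaller than the SD of 0.31 between probe sets of a gene.

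**Figure D2:**
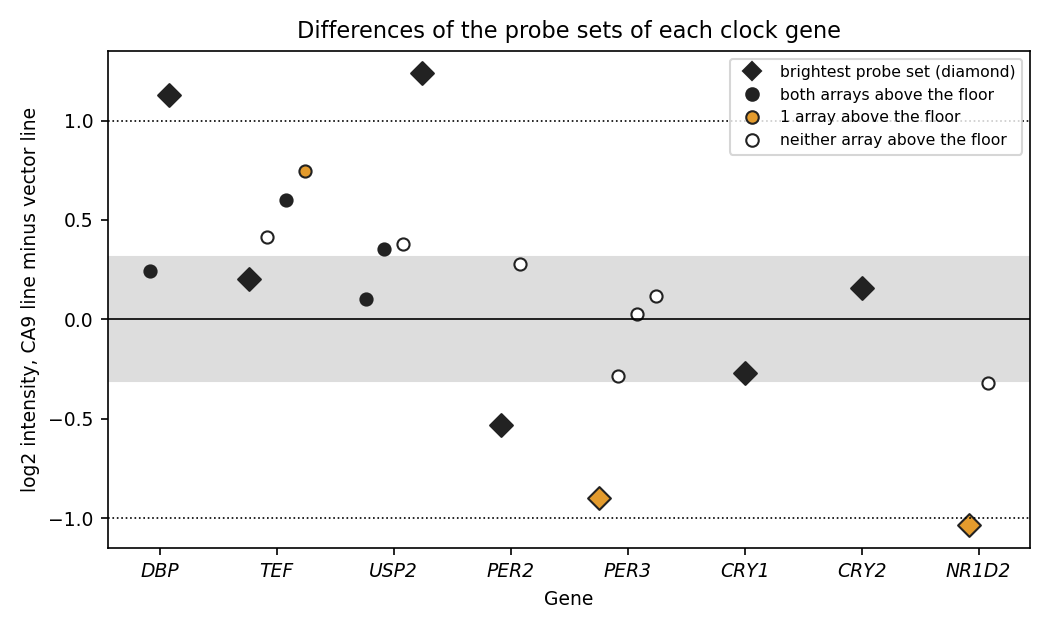
Log2 intensity of the CA9 line minus that of the vector line for each probe set of the 8 clock genes, with diamonds for the brightest probe set, black for both arrays above the floor, orange for 1 array and white for neither. Grey marks the pooled SD of 0.31 between probe sets and dotted lines mark 2-fold; DBP and USP2 each have 1 probe set above the upper line, and NR1D2 has 1 below the lower.

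Over all genes, the share past each fold sets the scale. Of 13823 measurable genes, 0.651% were higher by 2-fold or more in the CA9 line as measured and 0.694% were lower by as much. Of the 8 clock genes, 2 (DBP and USP2) were higher by 2-fold or more as measured and 1 (NR1D2) was lower. With values below the floor set to it, the shares over all genes were 0.492% higher and 0.543% lower, and of the clock genes DBP and USP2 were higher and 0 were lower. At 1.5-fold as measured, the shares over all genes were 5.29% higher and 4.74% lower, and of the clock genes 2 were higher (DBP and USP2) and 2 lower (PER3 and NR1D2). At 1.5-fold against the floor, the shares were 4.15% and 4.3%, and of the clock genes the same 2 were higher and 1, PER3, was lower. Since the genes were chosen from this same contrast, nothing is read from these counts. Their median log2 difference was -0.06, beside -0.03 over all measurable genes, with 4 of 8 above 0 and 45.9% of all genes above 0. The sign of that median is not settled, since it lay above 0 under 5 of 8 other settings. Part of this is a change in the genes counted. With probe sets averaged per gene the median was 0.32, but PER3 and NR1D2 were then not measurable and 6 clock genes remained. With quantile normalization all 8 stayed measurable and the median was 0.001.

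The position of each gene among all measurable genes shows how far its brightest probe set lay from the bulk. The difference was smaller than that of USP2 in 99.8% of measurable genes and smaller than that of DBP in 99.7%. It was smaller than that of PER2 in 6.67% of genes. No such position is given for PER3 and NR1D2, whose CA9 values lie below the floor. CRY1 stood at 22.3%, CRY2 at 70.5% and TEF at 74.8%. The clock genes had mean intensities between 32.6 and 381, a range that holds 10786 genes and in which the SD of the differences was 0.39. In that range 0.714% of genes were higher by 2-fold or more and 0.779% were lower.

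**Figure D3:**
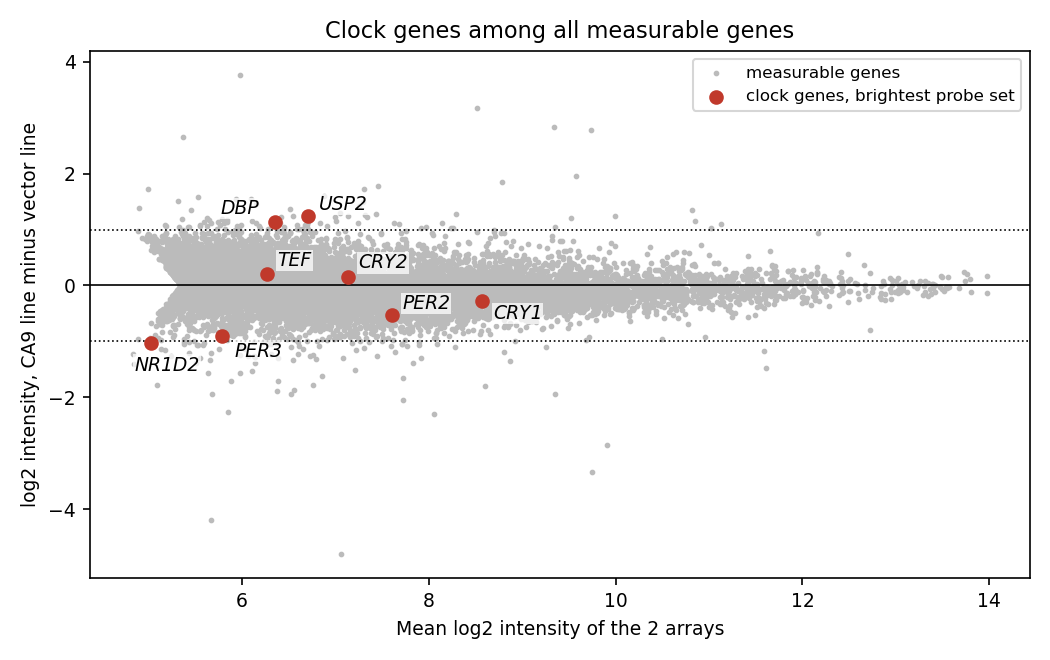
Mean log2 intensity of both arrays against the log2 difference, CA9 line minus vector line, for 13823 measurable genes (grey) and the 8 clock genes in their brightest probe set (red), with dotted lines at 2-fold. The clock genes lie in the dimmer part of the range, and USP2 and DBP stand above the upper line.

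The activators are on the opposite side of the loop. Of the 6 genes BMAL1, BMAL2, CLOCK, NPAS2, RORA and RORB, 4 were measurable, and 0 of these passed 1.5-fold in either direction in the brightest probe set. Over all measurable genes 5.29% were higher and 4.74% lower by as much, so with 4 genes this count says little. BMAL1, the partner of CLOCK, had intensities of 53.9 in CA9 cells against 53.2 in vector cells in its brightest probe set, a log2 difference of 0.02. CLOCK had 331 and 345, a log2 difference of -0.06, and its other probe sets above the floor were at -0.14 and 0.10. NPAS2, which can take the place of CLOCK, was at -0.03 in its brightest probe set, while 2 others above the floor were at 0.49 and 0.46. BMAL2, a relative of BMAL1, was lower in the CA9 line in 3 of 3 probe sets, at -0.17, -0.44 and -0.51. All 8 probe sets of RORA, which activates BMAL1, were below the floor.

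Further repressors and output genes were mostly lower in the CA9 line. Of 12 such genes 9 were measurable, 2 of them lay above 0, 2 were lower by 1.5-fold or more and 0 were higher by as much, with a median log2 difference of -0.22. Over all measurable genes 45.9% lay above 0, 4.74% were lower and 5.29% higher by 1.5-fold or more, and the median was -0.03. The lists were chosen with earlier results of these data known, so nothing is read from these counts. WEE1, a kinase that holds cells before mitosis and whose gene is driven through E-boxes, had intensities of 587 in CA9 cells against 1156 in vector cells, a 1.97-fold difference, and its second probe set was at -0.34. NFIL3, which represses through the same D-box that DBP and TEF activate, had 47.0 and 83.8 in its only probe set, a 1.78-fold difference. NFIL3 was lower where DBP and TEF were higher, but its CA9 value lies near the floor of 40.8, and a link between these genes was not tested. HLF, the third member of the family of DBP and TEF, and the repressor CIART were below the floor on both arrays.

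Enzymes that modify clock proteins were also mostly lower. All 10 with a single-gene probe set were measurable, 2 lay above 0, 1 was at least 1.5-fold lower, and the median was -0.19. The values over all measurable genes were 45.9% above 0, 4.74% at least 1.5-fold lower and a median of -0.03. Nothing is read from these counts either. SIRT1, a deacetylase that acts on PER2 and BMAL1, had 175 in CA9 cells against 278 in vector cells, a 1.59-fold difference in its only probe set. CSNK1E, a kinase that marks PER proteins for breakdown, was at 0.55 in its brightest probe set and at -0.20 in its other, so its direction is not settled.

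Genes induced by glucocorticoids, cAMP or serum, signals that also reach PER1, showed no common direction when pooled in 1 list. Of 14 measurable genes 8 lay above 0, beside 45.9% of all measurable genes, and the median was 0.12, beside -0.03. ZBTB16, a zinc finger gene induced by glucocorticoids, had 52.8 in CA9 cells against 25.2 in vector cells, which is under the floor, a difference of at least 1.29-fold. ATF3, a stress-induced factor, had 56.7 and 98.8 in its brightest probe set, a 1.74-fold lower value, but its other probe sets were at 0.29 and 0.23. In their brightest probe sets TSC22D3, KLF9, FKBP5, SGK1 and DUSP1 were at 0.19, 0.53, 0.13, 0.28 and 0.40. FKBP5, KLF9 and DUSP1 each also had a probe set below 0. FOS and CREM were at -0.51 and -0.31. Whether genes induced by the same signal share a direction was not tested.

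Proliferation genes, listed because WEE1 and other clock outputs act on the cell cycle, were near 0. All 16 were measurable, 5 lay above 0, 0 passed 1.5-fold in the brightest probe set, and the median was -0.08. Over all measurable genes 45.9% lay above 0, and 5.29% were higher and 4.74% lower by 1.5-fold or more. MKI67 was the farthest above 0, at 0.39, and RRM2 followed at 0.30. The kinase gene CDK1 was at -0.23 in its brightest probe set, with 2 others above the floor at -1.22 and -0.91.

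**Figure D4:**
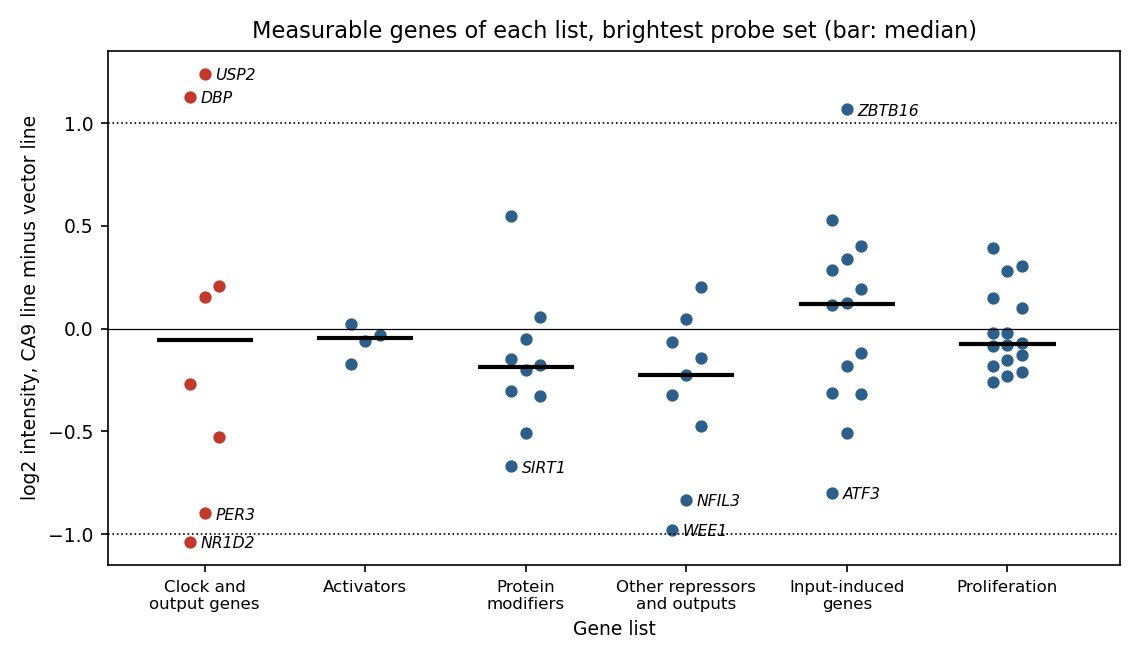
Log2 intensity of the CA9 line minus that of the vector line for the measurable genes of each list in their brightest probe set, with the median as a black bar and dotted lines at 2-fold; genes past 1.5-fold are named. The clock and output genes spread from -1.04 to 1.24, but they were chosen with this contrast known, so their spread is not compared with that of other lists. The -1.04 is that of NR1D2, which lies below the floor in the CA9 line. The 4 activators lie between -0.17 and 0.02 here, and other probe sets of BMAL2 and NPAS2 lie outside that range.

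Several measures describe the arrays themselves. Median intensities were 41.8 (CA9) and 40.1 (vector), and log2 intensities had a Pearson correlation of 0.974 across measurable genes, which are not independent replicates. Hybridisation spike-ins were higher on the CA9 array by a median log2 difference of 0.41, in 17 of 18 probe sets, and their part in the differences above was not tested. The log2 signal at the 3' end minus the 5' end was 0.67 and 0.73 for the ACTB control on the CA9 and vector arrays, and 0.06 and 0.04 for GAPDH. The annotation pairs 0 probe sets with CA9 alone, so the transgene was not analysed here and the labels have no such check. Of the markers fixed for an epithelial line, KRT8 and KRT18 were above the floor on both arrays, KRT19 on the CA9 array alone, and EPCAM and CDH1 on neither. CDH2, which stands in the same list but encodes the cadherin of mesenchymal and neural cells, was above it on both. All 4 measurable genes of these 6 were higher in the CA9 line, with a median log2 difference of 0.44. Over all 6, those below the floor included, summed intensities were 329 in CA9 cells against 242 in vector cells. The part of these marker differences in the clock gene differences was not tested. Of 3 blood cell markers with a probe set, 0 were above the floor on both arrays, with summed intensities of 114 and 130. PTPRC, at 30.1 against 58.1, was lower in the CA9 line, and CD14, at 57.1 against 36.9, was higher. For 5 markers of fibroblasts and endothelium the sums were 394 and 382. Of these, COL1A1 (164 and 170), PECAM1 (84.0 and 64.0), DCN (78.2 and 78.2) and VWF (56.2 and 55.9) lay above the floor on both arrays. No value of DBP, TEF or USP2 was above those of COL1A1, and their highest, 161 for USP2 and 121 for DBP, lie in the same range. So do CRY2 (149 and 133), the vector value of PER3 (75.4) and the CA9 value of PER2 (162). The vector value of PER2 (234) and both values of CRY1 (347 and 419) lie above it. Whether a value above the floor reflects expression was not tested.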

How the data were processed

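The authors deposited 1 linear intensity per probe set and array, produced with the RMA method per the submitters' processing notes. Its version, background setting and probe definitions are not given in the sources used here, and RMA ordinarily gives log2 values, so the linear scale is inferred from their range (6.79 to 17091). Intensities were put on log2 without a pseudocount. Gene names came from the platform annotation, where 41097 of 54675 probe sets have 1 symbol and 1801 several; Entrez identifiers of 41043 matched RefSeq (GRCh38.p14). Differences are the CA9 line minus the vector line, called by size at 2-fold, with 1.5-fold as a second limit. Named were all clock genes, BMAL1, CLOCK and NPAS2, and the genes of each other list past 1.5-fold, filled up to 2 with those farthest from 0; others are named after their values were seen. Members and lists were chosen with earlier results of these data known. A further gene of the lists is not reported here. The number of arrays limits the precision. The call rule was tested on simulated data whose only noise was the SD of 0.31 between probe sets of a gene. That simulation held no spread between cultures or arrays, so it says nothing about it. Python 3.11.15, numpy 2.4.6, pandas 2.3.3, statsmodels 0.14.6 and matplotlib 3.10.9 were used. Alternatives changed the probe set, floor, scaling and pseudocount.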

Additional observations from a re-analysis of the deposited data

How the results depend on the processing

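Over 8 alternative settings each clock gene kept the sign of its difference wherever it stayed measurable, and under the 3 scalings every probe set of DBP, TEF and USP2 stayed above 0 and both of NR1D2 below. The median of the clock genes, near 0, ran from -0.12 to 0.32 and lay above 0 in 5 of the 8. Averaging the probe sets of a gene left 6 clock genes measurable, 0 of them 2-fold higher, 0 2-fold lower, 1 (DBP) 1.5-fold higher and 0 1.5-fold lower, with a median of 0.32; DBP was then at 0.69 and USP2 at 0.52. Over all genes that setting gave 44 higher and 48 lower genes at 2-fold, and 456 and 329 at 1.5-fold. Without probe sets named _x_at or _s_at, 1 clock gene was 2-fold higher, 1 was 1.5-fold higher and 1 was 1.5-fold lower, and DBP was at 0.24. The median of the other repressors and outputs was then -0.62. It covered fewer genes than before, since some have no other probe set above the floor, so the 2 medians are not comparable. With the floor at the 75th percentile 5 clock genes remained measurable, 0 of them 2-fold lower and 0 1.5-fold lower, and 56 genes in all were 2-fold higher and 309 were 1.5-fold higher. A pseudocount of 16 left 1 clock gene (USP2) 2-fold higher and 0 2-fold lower, and over all genes 42 and 51 at 2-fold and 380 higher at 1.5-fold. The brightest probe sets of DBP and PER3 are named _s_at, and TEF, PER3 and NR1D2 lie under the higher floor. Otherwise the cause of these changes was not tested. Setting the medians equal moved all differences by -0.06. With values below the floor set to it, an alternative chosen after seeing the data, 0 clock genes were 2-fold lower and 1 was 1.5-fold lower. No paired analysis was possible because each line has 1 array. Signal over background limits PER3 and NR1D2, which lay below the floor in the CA9 line.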
